A study of Homo sapiens with 3 samples.

Results

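The 10 genes described here encode secreted factors that direct the growth of blood and lymph vessels, together with their neuropilin co-receptors: VEGFA, VEGFB, VEGFC, FIGF, PGF, ANGPT1, ANGPT2, PDGFA, NRP1 and NRP2. They were picked out by gene symbol from the 16149 genes with an entry in at least 1 of 3 mRNA sequencing libraries. FIGF is the older symbol of VEGFD. Of the 10 genes, 9 had an entry in at least 1 library and 8 in every library. VEGFC had none and was taken as 0.

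The libraries came from the human hepatocellular carcinoma (HCC) cell line HCCLM3 and 2 of its subclones, all grown in DMEM, with 1 library for each. The parent is labelled as having low metastatic ability, although the methods of the study describe its red fluorescent derivative HCCLM3-R, the parental line used there, as highly metastatic. Subclone 1 is labelled as more metastatic and specific to lung, and subclone 2 as metastatic to both lung and celiac lymph node. According to the methods, the subclonal lines of the study each grew from a single cell of a metastasis in a nude mouse, so that a subclone stands for 1 clone. The RNA was taken from cultured cells, where no host vessel was present, and in such a bulk sample a smaller share of expressing cells and less RNA per cell cannot be told apart.

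Vascular endothelial growth factors act on endothelial cells through the receptors FLT1, KDR and FLT4. VEGFA drives the sprouting of blood vessels, and VEGFB and PGF bind FLT1. VEGFC and VEGFD act on FLT4 and are known above all for the growth of lymphatic vessels. The angiopoietins are ligands of the receptor TEK, platelet-derived growth factors recruit pericytes and fibroblasts, and the neuropilins NRP1 and NRP2 help VEGF and class 3 semaphorins to bind. HCC is a richly vascularised tumour, and VEGFA is its best known angiogenic factor.

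The sequences before the transcription start are shown for PGF and PDGFA, which had the largest ratios over the parent among the 6 of these genes above 1 RPKM on average, and for VEGFC, which had no entry. RefSeq promoter sequences of 300 bases, from 250 before to 50 after the start, were found for 6 of the 10 genes. The outermost start is shown for each gene, and the table lists 2 starts for PGF and 4 for PDGFA. The build is GRCh38.p14, whereas the submitters' notes name hg19 for the expression values. Capitals mark GGGCGG or its reverse complement CCGCCC, the core of the GC box to which SP1 binds.
PGF, chr14:74955715-74956014, minus strand: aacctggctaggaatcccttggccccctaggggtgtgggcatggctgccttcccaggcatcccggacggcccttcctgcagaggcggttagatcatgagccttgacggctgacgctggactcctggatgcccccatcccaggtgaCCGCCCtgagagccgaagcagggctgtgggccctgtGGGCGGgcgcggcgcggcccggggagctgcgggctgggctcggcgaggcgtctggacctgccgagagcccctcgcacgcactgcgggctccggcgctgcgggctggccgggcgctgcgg
PDGFA, chr7:520651-520950, minus strand: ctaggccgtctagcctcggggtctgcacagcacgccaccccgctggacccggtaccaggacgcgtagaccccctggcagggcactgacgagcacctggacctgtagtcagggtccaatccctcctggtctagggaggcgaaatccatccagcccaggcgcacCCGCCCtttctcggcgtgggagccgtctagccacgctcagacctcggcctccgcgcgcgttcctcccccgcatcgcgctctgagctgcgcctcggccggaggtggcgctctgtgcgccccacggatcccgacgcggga
VEGFC, chr4:176792873-176793172, minus strand: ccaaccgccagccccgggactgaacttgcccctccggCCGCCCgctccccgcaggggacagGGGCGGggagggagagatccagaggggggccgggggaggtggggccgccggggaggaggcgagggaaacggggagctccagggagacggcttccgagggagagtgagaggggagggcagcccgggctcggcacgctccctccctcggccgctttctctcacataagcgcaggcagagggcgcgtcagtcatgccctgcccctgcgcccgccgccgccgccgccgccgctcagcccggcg
The GC box core was found 2 times for PGF, 1 time for PDGFA and 2 times for VEGFC, on either strand and with overlaps counted. It occurs in 15786 of the 35116 RefSeq promoters of this length. GCGTG, a core of the hypoxia response element, was found 1 time for PGF, 3 times for PDGFA and 1 time for VEGFC, and occurs in 36.5% of promoters. The other core, ACGTG, was in none of the 3 windows and occurs in 21.4% of promoters. G and C made up 70.3% of the window of PDGFA, 76.3% of that of VEGFC and a share between these for PGF. Such matches describe the letters of the window and no binding was measured.

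The expression values are RPKM, which correct read numbers for both gene length and library size, so that levels may be compared between genes. The libraries held 4488825 to 4725150 reads, as worked out from the RPKM themselves. The whole reads of each gene gave exact 95% Poisson intervals for levels and exact (Clopper-Pearson) binomial intervals for folds between libraries. Both cover counting error only, and with 1 library for each cell line no difference was tested between cell lines. Log2 ratios were taken on RPKM plus 0.1, which understates the differences of low genes. Genes whose RPKM averaged 1 or more over the 3 libraries are called measured genes. All 11370 measured genes formed the background, and the percentile of a gene is the place of its log2 ratio among them. Reads of splice forms are summed in these values, so that long and short forms of VEGFA or soluble forms of the neuropilins were not separated.

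The 10 genes ranged from abundant to near-silent. VEGFB, NRP1 and VEGFA were the most abundant in each library, in that order, followed by NRP2 and PDGFA at 4.76 to 10.8 RPKM. PGF came next, and FIGF, ANGPT1 and ANGPT2 did not exceed 0.205 RPKM anywhere. The intervals of neighbours in this order did not overlap for VEGFB, NRP1 and VEGFA in any library. NRP2 and PDGFA overlapped in both subclones, where PDGFA stood at 9.27 and 10.5 RPKM and NRP2 at 9.69 and 8.18 RPKM, but not in the parent. VEGFA, VEGFB, PGF, PDGFA, NRP1 and NRP2 thus counted as measured, and the other 4 did not.

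**Figure D1:**
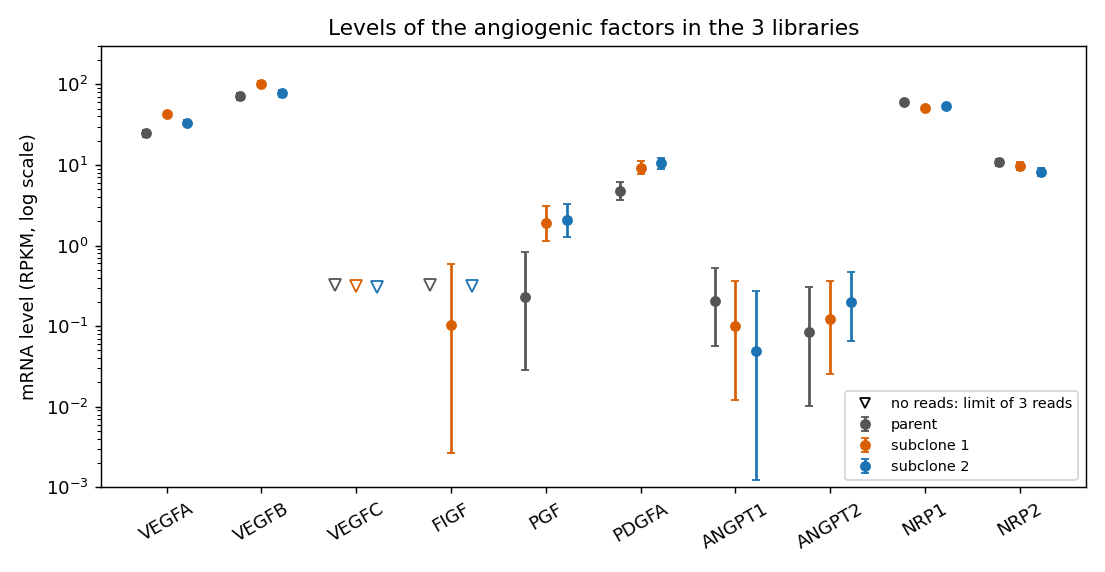
mRNA level of each of the 10 genes in RPKM on a log axis, with 1 point for each library (parent grey, subclone 1 orange, subclone 2 blue) and bars for the 95% Poisson interval of the reads. Open triangles stand for libraries without reads and mark the level that 3 reads would give. VEGFB, NRP1 and VEGFA lie at the top in each library, and PGF and PDGFA are the genes whose subclone points stand clear above the parent by the widest gap.

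VEGFA was higher in both subclones than in the parent, and most in subclone 1. The parent had 406 reads, or 24.6 RPKM (95% interval 22.3 to 27.1). Subclone 1 had 719 reads, or 42.4 RPKM (39.4 to 45.6), and subclone 2 had 571 reads, or 32.9 RPKM (30.2 to 35.7). The 3 intervals did not overlap. The fold over the parent was 1.72 in subclone 1 (1.52 to 1.95) and 1.34 in subclone 2 (1.17 to 1.52). The corresponding log2 ratios of 0.78 and 0.42 lay at percentiles 92.5 and 80.3 of all genes. Subclone 2 had 0.775 times the level of subclone 1 (0.693 to 0.866).

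VEGFB, a ligand of FLT1 linked to fatty acid uptake and vessel survival more than to sprouting, was the most abundant of the 10 genes. It had 71.3 RPKM in the parent (375 reads), 100.5 RPKM in subclone 1 (543 reads) and 77.1 RPKM in subclone 2 (427 reads). Subclone 1 stood apart, with a fold of 1.41 over the parent (1.23 to 1.61), while subclone 2 had a fold of 1.08 (0.939 to 1.25), a difference not detectable at this depth. Subclone 2 had 0.767 times the VEGFB of subclone 1 (0.674 to 0.872), close to the value for VEGFA.

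PGF, the placenta growth factor, had the highest ratio over the parent of the measured members in both subclones, on few reads. The parent gave 2 reads, or 0.233 RPKM (0.0282 to 0.842). Subclone 1 gave 17 reads, or 1.93 RPKM (1.12 to 3.09), and subclone 2 gave 19 reads, or 2.10 RPKM (1.27 to 3.29). Both subclones lay above the upper bound of the parent. The folds of 8.28 and 9.02 over the parent had wide intervals, from 1.96 to 73.9 and from 2.18 to 79.9, because the parent gave only 2 reads. The log2 ratios were 2.61 and 2.73, both at percentile 99.4. PGF counted as measured only through the subclones where it was high, so its place past 2-fold follows in part from that filter. The subclones could not be told apart, with a ratio of 1.09 (0.537 to 2.23).

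The sum of the VEGF family ligands was 96.1 RPKM in the parent, 145.0 RPKM in subclone 1 and 112.1 RPKM in subclone 2. VEGFB made up 74.2%, 69.3% and 68.8% of it and VEGFA 25.6%, 29.3% and 29.3%, in the same order. PGF did not exceed 1.88% of this sum in any library. The level of VEGFB was 2.90 times that of VEGFA in the parent, and 2.37 and 2.35 times in subclones 1 and 2.

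The lymphangiogenic ligands were at or near 0 in all 3 cell lines, including subclone 2 with its label of lymph node metastasis. VEGFC had no entry in any library. If this stands for 0 reads, it allows up to 0.324, 0.315 and 0.308 RPKM in the parent, subclone 1 and subclone 2, the level of 3 reads on its longest GENCODE transcript of 2064 bases. FIGF was listed in subclone 1 only, at 0.104 RPKM from 1 read, and the level of 3 reads on its transcript was 0.328 RPKM in the parent and 0.312 RPKM in subclone 2. Neither gene thus gave a difference between the libraries that this depth can show. Of 5 genes with a part in the maturation of VEGFC, FURIN, PCSK5 and PCSK7 were measured and none of them was 2-fold higher or lower in any pair. The share of all measured genes past 2-fold ran from 1.39% to 5.33% by pair and direction. For FURIN, PCSK5 and PCSK7 the counting interval of the fold took in 1 in each pair. CCBE1 had 2 or 3 reads in each library, and ADAMTS3 had no entry.

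The angiopoietins, ligands of TEK that stabilise vessels (ANGPT1) or loosen them (ANGPT2), were read only a few times. ANGPT1 had 4, 2 and 1 reads in the parent, subclone 1 and subclone 2, which is 0.205 RPKM at the most and 0.0488 RPKM at the least. ANGPT2 had 2, 3 and 5 reads in the same order, which is 0.0845, 0.123 and 0.201 RPKM. The order of the libraries was thus opposite for the 2 genes. For ANGPT1 the fold of subclone 2 over the parent was 0.237 with an interval from 0.00482 to 2.40, and for ANGPT2 it was 2.37 with an interval from 0.389 to 24.9, so that neither difference was detectable.

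PDGFA, whose product recruits mesenchymal cells through PDGFRA, was about 2-fold higher in both subclones. The parent had 60 reads, or 4.76 RPKM (3.63 to 6.13). There were 120 reads in subclone 1, or 9.27 RPKM (7.68 to 11.1), and 139 in subclone 2, or 10.5 RPKM (8.80 to 12.4). Neither subclone's interval met that of the parent. The folds were 1.95 (1.42 to 2.70) and 2.20 (1.61 to 3.03), at percentiles 94.5 and 95.6. Between the subclones the ratio was 1.13 (0.879 to 1.45). On the log2 scale subclone 1 stayed just under 2-fold at 0.95 and subclone 2 just past it at 1.12.

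Other PDGF ligands were measured beside it. PDGFC had 2 reads in the parent (0.145 RPKM), 52 in subclone 1 (3.66 RPKM) and 43 in subclone 2 (2.96 RPKM). Its folds over the parent were 25.3 (6.67 to 215) and 20.4 (5.32 to 174). PDGFB was 1.56-fold higher in subclone 1 (1.11 to 2.23) and 1.10-fold in subclone 2 (0.759 to 1.61), while PDGFD had no entry. PDGFC, like PGF, passed the filter on low values only through the subclones.

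NRP1, the co-receptor that binds the heparin-binding forms of VEGFA, was slightly lower in both subclones. From 1610 reads the parent had 60.8 RPKM (57.9 to 63.9). Subclone 1 had 50.4 RPKM from 1369 reads (47.7 to 53.1) and subclone 2 had 53.2 RPKM from 1482 reads (50.5 to 56.0). The parent's interval lay above both others. The folds over the parent were 0.828 (0.770 to 0.890) and 0.874 (0.814 to 0.939). With VEGFA higher, the level of NRP1 was 2.47 times that of VEGFA in the parent, and 1.19 and 1.62 times in subclones 1 and 2. NRP2, which also binds VEGFC and class 3 semaphorins, had 10.8 RPKM in the parent (322 reads), 9.69 in subclone 1 (298 reads) and 8.18 in subclone 2 (258 reads). For NRP2 the fold of 0.761 in subclone 2 left out 1 (0.644 to 0.899), whereas the fold of 0.901 in subclone 1 did not (0.767 to 1.06). The ratio of subclone 2 to subclone 1 was 0.845 for NRP2 (0.712 to 1.00) and 1.06 for NRP1 (0.981 to 1.14).

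**Figure D2:**
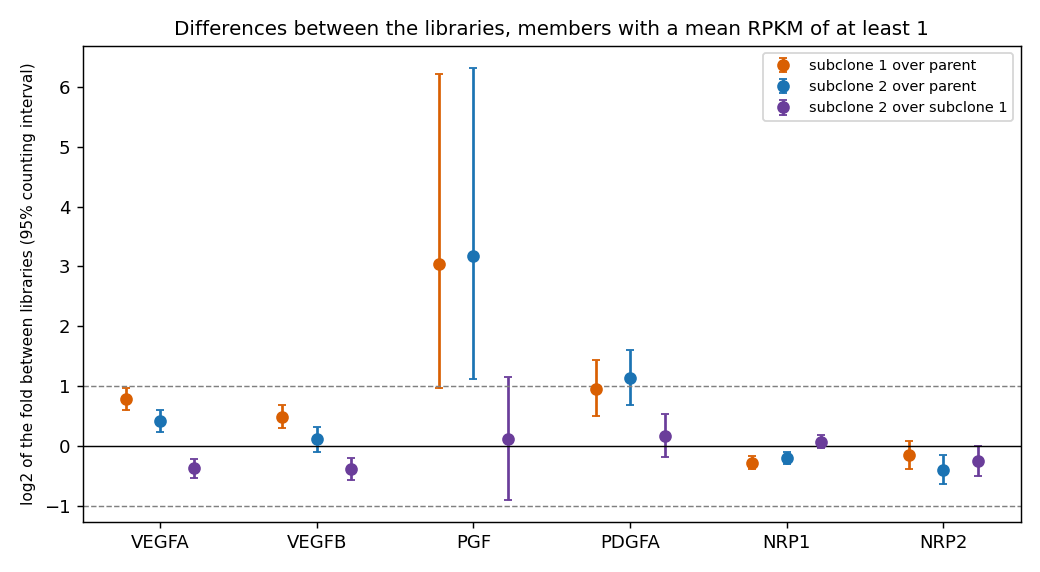
Log2 of the fold between libraries for the 6 measured members, from reads without a pseudocount, with 95% binomial counting intervals. Orange is subclone 1 over the parent, blue subclone 2 over the parent and purple subclone 2 over subclone 1, and dashed lines mark 2-fold. PGF has wide intervals that start near 2-fold, VEGFA and VEGFB lie below 0 between the subclones, and NRP1 lies below 0 in both subclones over the parent.

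For subclone 1 against the parent, 1 of the 6 measured members (PGF) was past 2-fold upwards and none downwards. The background for this pair was 4.9% of the 11370 genes upwards and 1.82% downwards. In subclone 2, 2 members (PGF and PDGFA) were past 2-fold upwards of the parent and none downwards, against 5.33% and 2.16% of all genes. PGF entered the measured set only through the subclones where it was high. The counts over the parent and the medians of the 6 measured members thus follow in part from that filter. Between the subclones no member was 2-fold apart, where 1.42% of all genes were higher and 1.39% lower in subclone 2. The median log2 ratio of the 6 measured members was 0.64 in subclone 1 and 0.26 in subclone 2 over the parent, beside 0.0043 and 0.0373 for all measured genes. For subclone 2 over subclone 1 it was -0.08 beside 0.0338. Over all 9 listed members, 3 of them on few reads, these medians were 0.50, 0.11 and -0.24, and a pseudocount of 1 gave 0.14, 0.11 and -0.07. Counting intervals of the fold left out 1 for 5 of the 6 genes in each subclone over the parent and for 2 of the 6 between the subclones. The same was true of 38.9%, 40.7% and 19.9% of the 11064 genes with whole reads, a share that grows with the reads of a gene. The comparisons over the parent share 1 parent library.

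**Figure D3:**
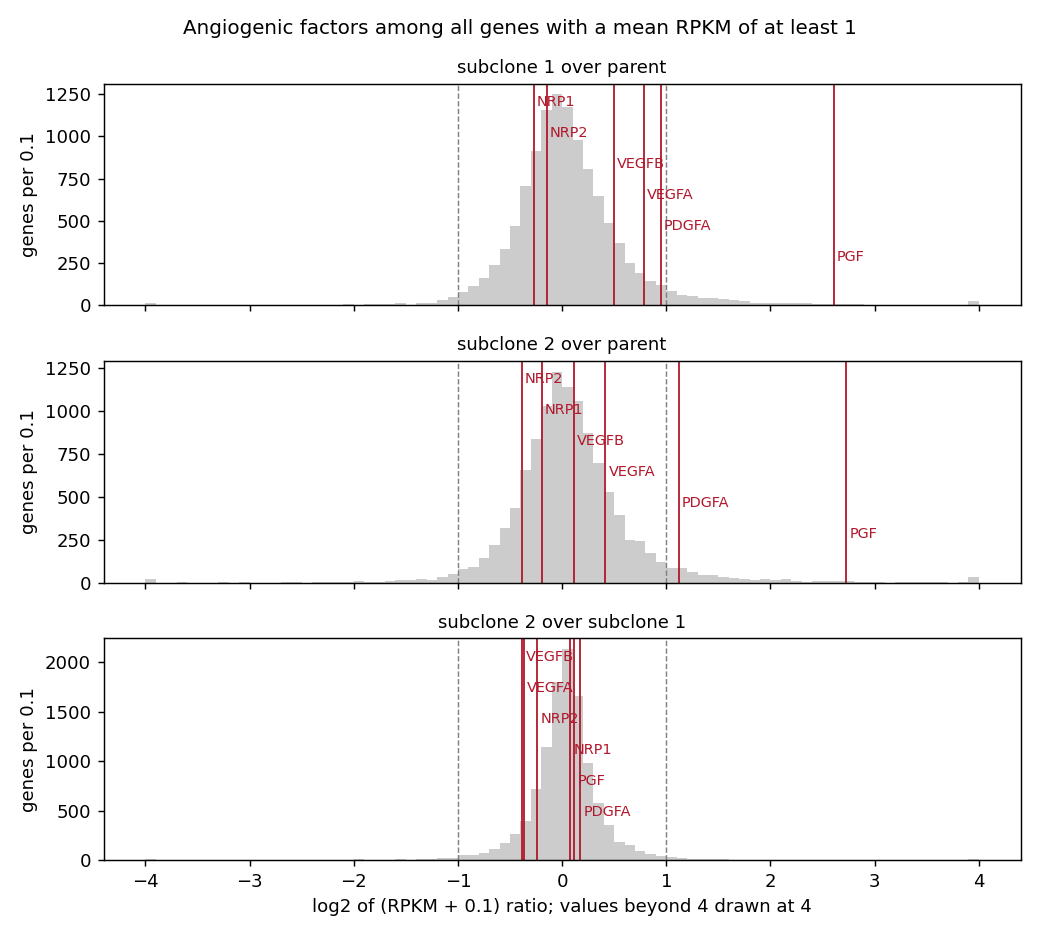
Histograms of the log2 ratio of all 11370 measured genes (grey, genes per 0.1 of log2), 1 panel for each pair of libraries, with red lines for the 6 measured members and dashed lines at 2-fold. PGF stands far out in the right tail in both subclones over the parent, PDGFA lies at the 2-fold line, and all 6 members lie within 2-fold between the subclones.

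The members were then set beside the genes around them. The neighbours of a member were the 10 nearest measured genes on each side. For NRP2 on chromosome 2 the log2 ratios of the gene were -0.15 in subclone 1 over the parent, -0.39 in subclone 2 over the parent and -0.24 between the subclones, and the medians of its 20 neighbours were -0.15, -0.39 and -0.24. For NRP1 on chromosome 10 the gene had -0.27, -0.19 and 0.08, and its 20 neighbours -0.29, -0.17 and 0.11. The small differences of both neuropilins were thus the same size as those of the genes around them. Among the same medians around 11332 genes, the neighbour median of NRP2 lay at percentile 12.7 in subclone 1 and 2.73 in subclone 2 over the parent. That of NRP1 lay at percentile 3.85 in subclone 1 and 10.6 in subclone 2.

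PDGFA on chromosome 7 had 10 neighbours, all on 1 side, with medians of 0.35 in subclone 1 and 0.42 in subclone 2 over the parent, at percentiles 98.4 and 98.9. The medians it was ranked among were mostly taken over genes on both sides. A median of fewer genes varies more, so these percentiles may be too extreme. Of the 10 neighbours, 3 in subclone 1 and 2 in subclone 2 were at least 2-fold higher. The log2 ratios of PDGFA itself were 0.95 and 1.12. PGF on chromosome 14 had neighbour medians of 0.06 and 0.04, far from its own 2.61 and 2.73. VEGFA on chromosome 6 had neighbours at -0.08 in subclone 1, where the gene had 0.78, and at 0.25 in subclone 2, where it had 0.42. VEGFB on chromosome 11 had neighbours at 0.14 and 0.10 and its own values at 0.50 and 0.11. What underlies a difference that a gene shares with its neighbours was not tested.

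**Figure D4:**
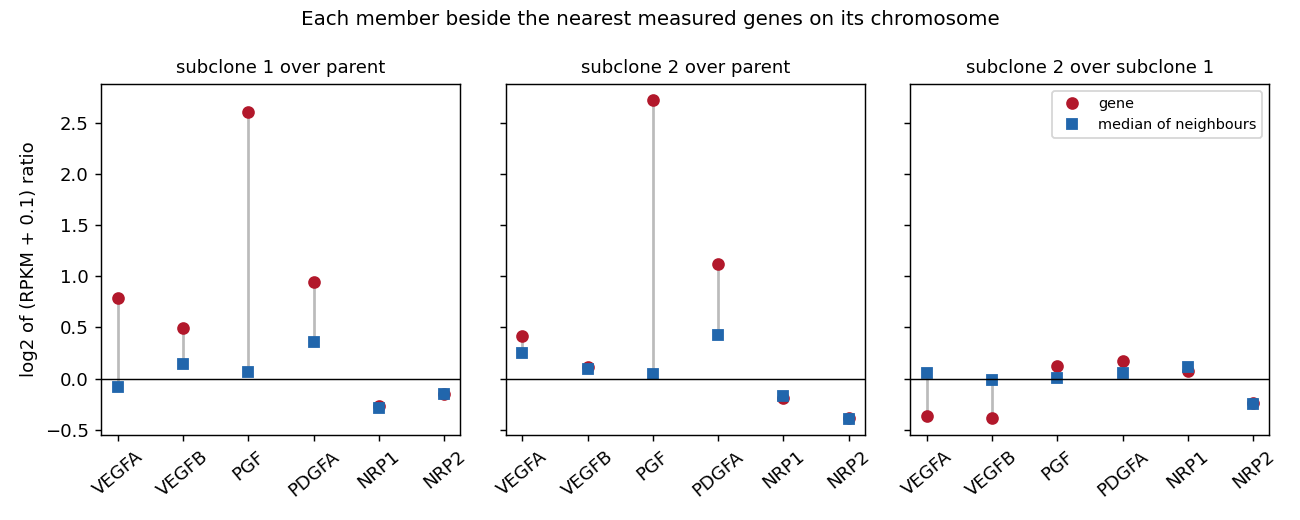
Log2 ratio of each of the 6 measured members (red circles) and the median log2 ratio of its nearest measured genes on the chromosome (blue squares), 1 panel for each pair of libraries. Circle and square nearly coincide for NRP1 and NRP2 in all 3 panels, and lie far apart for PGF in the 2 panels over the parent.

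The receptors of these ligands were scarce. Among 7 receptor genes only KDR, the main signalling receptor of VEGFA, was measured. KDR had 1.36 RPKM in the parent (37 reads), 1.93 in subclone 1 (54 reads) and 3.08 in subclone 2 (88 reads). Its fold over the parent was 2.26 in subclone 2 (1.52 to 3.41), while that of 1.42 in subclone 1 had an interval from 0.918 to 2.22. FLT1, the receptor of VEGFB and PGF, had 4, 3 and 3 reads in the 3 libraries, and FLT4, the receptor of VEGFC and VEGFD, had 1, 0 and 1. TEK had 8, 2 and 1 reads, and TIE1, PDGFRA and PDGFRB had no entry. All 7 receptors together came to 2.08 RPKM in the parent and to 2.24 and 3.38 RPKM in subclones 1 and 2.

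A list of 27 other pro-angiogenic factors had 18 measured genes. Against the parent, 6 of them were past 2-fold upwards and none downwards in subclone 1, and 7 upwards and 1 downwards in subclone 2, with medians of 0.39 and 0.54. The background was 4.9% upwards and 1.82% downwards in subclone 1 and 5.33% and 2.16% in subclone 2. This list, like the other gene lists used here, was written with earlier results of these data known. TYMP and HBEGF were both among the genes counted upwards in subclone 2, and TYMP also in subclone 1. Both genes were under 1 RPKM in the parent. TYMP counted as measured only through the subclones. HBEGF did so only through subclone 2, with 0.936, 0.911 and 2.40 RPKM in the parent, subclone 1 and subclone 2. CXCL1, a chemokine ligand of CXCR2, had 9, 113 and 114 reads in the parent, subclone 1 and subclone 2, and was 12.2-fold higher in subclone 1 (6.22 to 27.4). CXCL5, of the same chemokine group, was at 38.4, 104.8 and 217.3 RPKM, and its fold over the parent was 5.65 in subclone 2 (5.10 to 6.28). TYMP, thymidine phosphorylase, had 4, 22 and 10 reads, and EGFL7, a secreted factor best known from endothelial cells, had 9, 30 and 23. The fold of TYMP over the parent in subclone 2 was 2.37, with an interval from 0.685 to 10.4 that took in 1.

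Inhibitors of angiogenesis were measured in the same way. Of 16 genes on this list 8 were measured. In subclone 1, 1 of them was past 2-fold upwards of the parent and 1 downwards, and in subclone 2, 1 upwards and none downwards, beside the same background shares. SERPINF1, which encodes the anti-angiogenic pigment epithelium-derived factor, was at 11.2, 41.5 and 43.4 RPKM in the parent, subclone 1 and subclone 2. Its folds over the parent were 3.71 (2.88 to 4.82) and 3.87 (3.01 to 5.03). TIMP3, a metalloproteinase inhibitor that also blocks VEGFA at KDR, was lower, with 62.3, 30.8 and 42.8 RPKM and a fold of 0.494 in subclone 1 (0.453 to 0.539). THBS1 was lower in both subclones, with folds of 0.609 (0.561 to 0.660) and 0.676 (0.625 to 0.731). Of the 8 measured inhibitors, 5 lay above the parent and 3 below in subclone 1, and 6 above and 2 below in subclone 2.

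Markers of cell types gave the following values. Of 12 endothelial markers, CLDN5, ROBO4, ERG and TIE1 had no entry, CDH5 had at most 1 read and VWF at most 2. PECAM1, ESAM, PROX1, LYVE1 and KDR were measured, and the list summed to 44.5, 52.9 and 40.6 RPKM in the parent, subclone 1 and subclone 2. Most of this sum was ESAM, with 34.2, 39.2 and 29.8 RPKM in the same order. PECAM1 was 2.95-fold higher in subclone 1 (1.98 to 4.48) and PROX1 was 0.243 times the parent there (0.113 to 0.479). LYVE1 was lower in both subclones, at 0.397 times the parent in subclone 1 (0.178 to 0.826) and 0.317 times in subclone 2 (0.131 to 0.694). It had 2.39, 0.948 and 0.756 RPKM in the parent, subclone 1 and subclone 2, from 27, 11 and 9 reads. LYVE1 counted as measured only through the parent, where it was high, so its place past 2-fold downwards follows in part from that filter. Between the subclones PROX1 was 3.19-fold higher (1.59 to 6.95) and PECAM1 was 0.455 times as high (0.316 to 0.646) in subclone 2. Of 8 mural cell and fibroblast markers PDGFRB and ACTA2 had no entry, and the list, mostly LUM, summed to 15.8, 31.1 and 24.4 RPKM in the same order. The matrix genes DCN and LUM were at least 2-fold higher than in the parent in both subclones, DCN from under 1 RPKM in the parent. The collagen gene COL3A1 was lower in both subclones, with 4.42, 2.21 and 0.463 RPKM in the parent, subclone 1 and subclone 2. Its log2 ratios over the parent were -0.97 in subclone 1, just under 2-fold, and -3.01 in subclone 2. The counting intervals of the fold, 0.356 to 0.697 and 0.0524 to 0.190, both left out 1. Of 7 macrophage markers CSF1R and AIF1 had no entry, and neither of the 2 measured ones was 2-fold apart in any pair. The share of all measured genes past 2-fold ran from 1.39% to 5.33% by pair and direction. The macrophage list, mostly CD68, summed to 76.6, 114.6 and 101.2 RPKM.

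Of 11 hepatocyte markers 8 were measured, and 4 of these in subclone 1 and 3 in subclone 2 were past 2-fold upwards of the parent, with none downwards, where 4.9% and 5.33% of all measured genes were upwards. ALB, which encodes albumin, had 2.46 RPKM in the parent, 49.5 RPKM in subclone 1 and 68.8 RPKM in subclone 2. TF, transferrin, was high in subclone 1 alone, with 5.71, 30.3 and 5.88 RPKM in the same order, and APOB had 1.23 RPKM in subclone 1, 4.17 RPKM in subclone 2 and less than either in the parent, so that it counted as measured only through the subclones. APOA1, TTR and SERPINA1, abundant in adult liver, were under 1 RPKM in every library, whereas the epithelial keratin KRT8 reached 1614 to 1742 RPKM and the hepatic transcription factor HNF4A 11.7 to 16.0 RPKM. The part of these markers in the differences of the angiogenic factors was not tested.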

How the data were processed

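mRNA of cultured HCC cells was sequenced from TruSeq libraries, 1 for each of the 3 cell lines. The authors deposited RPKM values per gene, with genes above 0 listed. The submitters' processing notes name hg19. The aligner, counter, annotation and handling of strand were not given in the sources used here. Groups were taken from the sample titles.

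Genes missing from a library were set to 0, and log2 ratios used RPKM + 0.1. Measured genes, those whose RPKM averaged 1 or more, formed the background. Library totals were recovered as the common step of low RPKM values. For 600 picked genes, a length that gave whole reads was sought without the use of GENCODE. Among the genes with such a length, 82.5% came within 10% of a GENCODE transcript with these totals. The share was 18.6% at 0.5 times and 60.7% at 2 times the totals. The number of genes with such a length was not kept and may differ between these settings. The smallest length from 0.5 times the median to 1.5 times the longest GENCODE transcript that gave whole reads in every library (within 0.004 reads) was taken. This gave whole reads for 97.3% of the 11370 background genes. Where the reads of a gene have a common factor the method can give too few, and intervals are then too wide. The recovery and the ratios were tested on simulated data.

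Gene order came from the RefSeq table of GRCh38.p14. Genes named beyond the 10 members were at most 4 per list, at least 2-fold apart with a counting interval leaving out 1, plus FLT1, KDR, FLT4 and TEK. Genes named only as lacking reads, KRT8, KRT18, HNF4A, CD68, HBEGF, PDGFB and ESAM were named after their values were seen. So were THBS1, the regulators of VEGFA and the proteases of VEGFC. The members and lists were chosen with earlier results of these data known. No test between cell lines was possible. Alternatives were pseudocounts of 0.01 and 1, equal RPKM sums, median-centred ratios, scaling to the upper quartile, to ACTB or to GAPDH, an average RPKM of 5 or no minimum, and 1.5-fold. Python 3.11.15, numpy 2.4.6, pandas 2.3.3, scipy 1.17.1 and matplotlib 3.10.9 were used.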

Additional observations from a re-analysis of the deposited data

How the results depend on the processing

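With 1 library for each cell line no spread between replicates was known, leaving out a library was not possible, and a difference between libraries cannot be told apart from one between cultures. No paired analysis was possible because there is 1 library per cell line. PGF in the parent rested on 2 reads and FIGF on 1 read in all, so depth limits both.

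Of 182 log2 ratios of the members under the alternatives, none changed sign and 179 stayed within their counting interval. A change of pseudocount cannot reverse a sign. The intervals of FIGF, ANGPT1 and ANGPT2 were so wide that their ratios had little room to leave them, so these counts say little for such genes. The 3 ratios outside their interval were of NRP1: -0.40 for subclone 1 over the parent with division by ACTB, and 0.20 for subclone 2 over subclone 1 with division by ACTB and by GAPDH alike. Over the parent the log2 ratio of PGF lay between 1.25 and 3.00 in subclone 1 and between 1.33 and 3.12 in subclone 2, and that of PDGFA in subclone 2 from 0.99 to 1.18. Division by ACTB moved the median of all genes to -0.13 for subclone 1 over the parent and to 0.16 for subclone 2 over subclone 1, and GAPDH moved the latter to 0.15. With ACTB 328 genes were at least 2-fold lower in subclone 1, and the share of higher among 2-fold different genes was 57.8% in place of 72.9%. For subclone 2 over subclone 1 this share was 64.0% with ACTB and 62.6% with GAPDH, in place of 50.5%.

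The counts below give the genes higher and lower for subclone 1 over the parent, subclone 2 over the parent and subclone 2 over subclone 1. A pseudocount of 1 gave 347 and 117, 380 and 150, and 80 and 77 genes, and 1 member higher in subclone 2 than in the parent. No filter gave 1523 and 884, 1553 and 941, and 842 and 902 genes. It also gave 2 members higher in subclone 1 (PGF and FIGF), 1 lower in subclone 2 than in the parent (ANGPT1) and 1 lower in subclone 2 than in subclone 1 (FIGF), all but PGF on at most 4 reads. A mean RPKM of at least 5 gave 233 and 71, 253 and 93, and 43 and 46 genes, with 0 members higher in subclone 1 and 1 in subclone 2, since PGF is not in that set. At 1.5-fold there were 1317 and 848, 1444 and 830, and 540 and 467 genes, and 3 members higher in subclone 1 (VEGFA, PGF and PDGFA).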

Other observations

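Of 12 genes known to act upstream of VEGFA, 11 had a mean RPKM of at least 1, and none was 2-fold higher or lower in any pair of libraries. The share of all measured genes past 2-fold ran from 1.39% to 5.33% by pair and direction. Counting intervals of the fold over the parent left out 1 for 9 of the 11 genes in subclone 1 and 6 in subclone 2. The same was true of 38.9% and 40.7% of all genes with whole reads, a share that grows with the reads of a gene. The median log2 ratio of the 11 genes was -0.05 in subclone 1 and 0.12 in subclone 2 over the parent. The list mixes genes that raise VEGFA with genes that lower it, so this median gives no direction for VEGFA. EPAS1, the HIF-2 alpha subunit, was at 39.1, 55.7 and 60.6 RPKM in the parent, subclone 1 and subclone 2, with folds over the parent of 1.42 (1.26 to 1.61) and 1.55 (1.38 to 1.74). EGLN1, a prolyl hydroxylase that marks HIF proteins for degradation, was at 27.6, 18.7 and 19.2 RPKM, with folds of 0.679 (0.612 to 0.754) and 0.696 (0.628 to 0.771). ARNT (1.17 and 1.22), ZFP36 (1.20 and 1.42) and ZFP36L1 (1.17 and 1.15) were also higher in subclones 1 and 2 than in the parent. ELAVL1 was lower, at 0.810 and 0.763 times the parent. For these genes too the intervals of the fold left out 1. All regulators named here were picked after their values were seen, and how they bear on VEGFA was not tested. HIF1A lay at 89.4, 96.2 and 84.8 RPKM. Between the subclones the fold of EPAS1 was 1.09 (0.979 to 1.21), a difference not detectable at this depth.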
